A study of Mus musculus with 9 samples.

Results

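Testis RNA was compared between the 6 libraries of mice injected with a KIFC1 inhibitor, 3 with AZ82 and 3 with CW069, and the 3 Control libraries of mice injected with PBS. Every gene of the count table entered the comparison. All 9 samples were testis of 8-week-old ICR mice, an outbred stock; AZ82 was given at 1 µM and CW069 at 50 µM, so the doses of the inhibitors differed. The labels give neither the time after injection nor whether the samples of a group came from separate animals, so each p-value speaks of the spread among the sampled libraries, part of which could be technical. Of 19991 genes in the table, 15834 had enough counts to be tested. Among these, 347 genes lay above the highest Control library in all 6 inhibitor libraries and 462 lay below the lowest, 809 in all.

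KIFC1 is a minus-end-directed kinesin of the kinesin-14 class, a motor that cross-links and slides microtubules, gathers spindle poles and, in spermatids, is linked with shaping of the nucleus and the acrosome. The testis is a mixture of germ cells at all stages, which form sperm inside the seminiferous tubules, the Sertoli cells that nurse them, and interstitial cells, among them the testosterone-producing Leydig cells and macrophages. AZ82 and CW069 are small molecules, known here by code names, that inhibit the KIFC1 protein.

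Total counts ran from 13856070 to 18102593 per library, and 18314 to 18553 genes had counts. One library stood apart in late germ cell transcripts: the elongating spermatid genes summed to 18227 CPM (counts scaled to library size) in Control 3 against 33921 and 31678 in Control 1 and 2. Defining markers of germ cells, Sertoli cells and Leydig cells were present in each library. Of the markers of tissues next to the testis, 1 of 9 epididymis genes and 4 of 9 skeletal muscle genes had enough counts to be tested. Levels below are CPM scaled by the trimmed mean of M values (TMM), fold changes are log2 values of the mean of the AZ82 and CW069 groups against Control, with their standard error (SE), and P-values come from edgeR's quasi-likelihood test, adjusted by Benjamini-Hochberg over all genes tested.

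The transcript of the target did not separate the groups. Kifc1 stood at 8.42, 9.56 and 7.98 CPM in Control 1 to 3, and at 8.97 to 10.5 CPM, with a median of 9.31, in the inhibitor libraries. The ranges overlapped, and the log2 difference was 0.13 ± 0.10 (SE), with a 95% interval from -0.10 to 0.35 (edgeR adjusted p = 0.688). Its value was 0.20 without Control 2 and 0.07 without Control 3. Kifc5b, a near-identical copy whose reads the counting may not separate from those of Kifc1, differed by -0.02 ± 0.10 (edgeR adjusted p = 0.958). Because the compounds act on the protein, neither value checks the labels.

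One gene fell and none rose past an adjusted p of 0.05 when both inhibitors were set against Control: 1 of 15834 genes was lower (0.00632%) and 0 were higher (0%) in edgeR. At an unadjusted p under 0.05 edgeR listed 682 genes as higher and 834 as lower. With DESeq2, 5 genes were called higher and 10 lower; with limma-voom, 0 and 1. The gene was Slc1a7, which encodes a glutamate transporter with chloride channel activity best known from the retina. It had 27, 28 and 22 counts in Control 1 to 3. The AZ82 libraries had 0, 1 and 0 counts and the CW069 libraries 1, 2 and 0. All 6 inhibitor libraries thus lay far below all 3 Control libraries, at 0 to 0.137 CPM against 1.46 to 1.86 CPM. Relative to the TMM-scaled library sizes, the summed counts of Slc1a7 were 37.7-fold lower, with a 95% counting interval from 14.2-fold to 142-fold that covers counting error only. The fitted log2 fold change was -5.14 ± 0.49 (edgeR adjusted p = 0.00924). The call was lost without AZ82 1 (adjusted p = 0.0557), AZ82 2 (0.0626), AZ82 3 (0.0518) or CW069 1 (0.0761) in edgeR, while the log2 fold change stayed between -6.12 and -4.83 when any of the 9 libraries was left out.

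Genes next to Slc1a7 on chromosome 4 were read in the gene order of RefSeq (GRCm38.p6), used for order alone. Among the 25 tested genes on either side, 50 in all, 1 lay above Control in all 6 inhibitor libraries and 4 lay below, against 2.19% and 2.92% of all genes tested, so the count above is near the background. The one above was Ttc22, a gene of unknown role that encodes tetratricopeptide repeats. Those below were Orc1, the largest subunit of the complex that marks origins of DNA replication, Tut4, a terminal uridylyltransferase acting on RNA, Zfyve9, an adaptor of TGF-beta receptors, and Dmrtb1, a regulator of the step from spermatogonium to meiosis. Their log2 differences were 0.98 ± 0.14 for Ttc22, -0.68 ± 0.13 for Orc1, -0.29 ± 0.07 for Tut4, -0.19 ± 0.07 for Zfyve9 and -0.12 ± 0.05 for Dmrtb1, none past the adjusted threshold (edgeR adjusted p from 0.270 to 0.521). Tut4 and Zfyve9 were named after their values were seen.

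**Figure D1:**
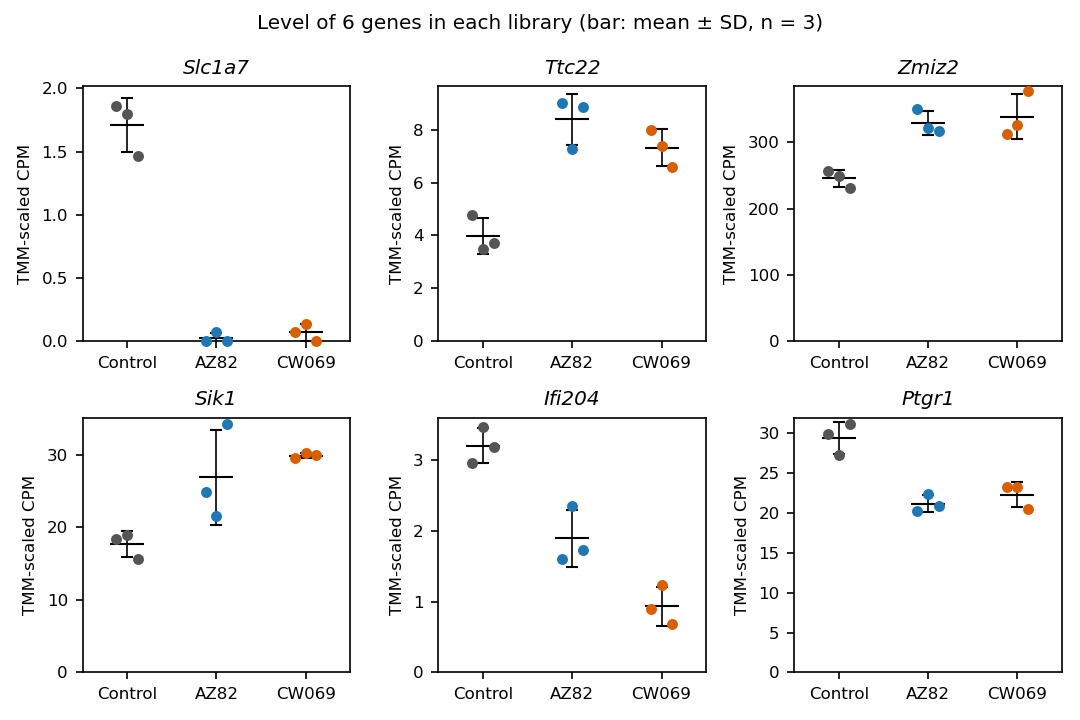
TMM-scaled CPM (vertical axis, from 0) of Slc1a7, Ttc22, Zmiz2, Sik1, Ifi204 and Ptgr1 in each library; points are libraries, the wide bar is the group mean and the whiskers are ± SD over 3 libraries. In all 6 panels the AZ82 and CW069 points lie on 1 side of every Control point, and Slc1a7 is at 0 to 0.137 CPM after either inhibitor.

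Beyond that gene, the differences shared by all 6 inhibitor libraries were small. The 347 genes above every Control library made up 2.19% of the genes tested, and the 462 below made up 2.92%. No overlap is a description of the 9 libraries, not a call: the smallest edgeR adjusted p was 0.270 among the genes above and, Slc1a7 aside, 0.350 among the named genes below. Their median log2 difference was 0.21 above and -0.23 below, and 3 genes above and 10 below differed by at least 2-fold. Of the 347 and 462 genes, 274 and 355 had an unadjusted p under 0.05 in edgeR, against 682 higher and 834 lower among all 15834 genes. Those counts are no support, since the genes were chosen by their order in the same 9 libraries. The balance of directions depended on the scaling. With library size alone in place of TMM, 120 genes lay above and 784 below, and the median over all genes moved from 0.00 to -0.07.

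The inhibitors were also set against each other over the same genes, at the unequal doses given. No gene was called between CW069 and AZ82 (0 of 15834, 0%), the smallest edgeR adjusted p being 0.255. At an unadjusted p under 0.05 edgeR listed 787 genes, and DESeq2 called 13 and limma-voom 0. Of the 809 genes outside the Control range, 20 (2.47%) had an unadjusted p under 0.05 between the inhibitors, against 4.97% of all genes tested. That share has no independent meaning, since genes on which the inhibitors differ are less able to lie on 1 side in all 6 libraries.

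Among the 12 genes above Control with the smallest p, Ttc22 came first. It stood at 4.76, 3.47 and 3.72 CPM in Control 1 to 3, at 9.02, 7.28 and 8.88 CPM in AZ82 1 to 3 and at 8.01, 7.39 and 6.59 CPM in CW069 1 to 3. Every inhibitor library was above the highest Control, and the ratio of the groups was 1.97 (log2 difference 0.98 ± 0.14, edgeR adjusted p = 0.270). Zmiz2, a transcriptional coactivator with a SUMO ligase-like domain, was the most abundant of these 12 by CPM. Its Control libraries held 257, 249 and 231 CPM and its inhibitor libraries 313 to 378 CPM, with a median of 324. The gap between the groups was wider than the range within Control, at a ratio of 1.36 (0.44 ± 0.07, edgeR adjusted p = 0.350). Sik1, a salt-inducible kinase whose transcript responds quickly to cyclic AMP, stood at 15.6 to 19.0 CPM in Control and at 21.6 to 34.2 CPM, median 29.7, after the inhibitors, a ratio of 1.60. Within AZ82, Sik1 ran from 21.6 to 34.2 CPM, while the CW069 libraries lay between 29.5 and 30.2 CPM.

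The other genes above Control had varied roles. Gsdmd encodes gasdermin D, the pore-forming protein of pyroptotic death; it had 2.18 to 3.06 CPM in Control and 3.36 to 5.70 CPM after the inhibitors, with AZ82 2 the lowest of the latter. Rbm47, an RNA-binding protein, and Gata2, a zinc finger transcription factor, were at ratios of 1.34 and 1.27. Amer2, a regulator of Wnt signalling, stood at 54.2 to 55.8 CPM in Control and at 62.5 to 69.5 CPM after the inhibitors, a small but clean gap at a ratio of 1.21. Galnt17, of the mucin-type glycosyltransferase family, and Tns3, a focal adhesion tensin, were at ratios of 1.56 and 1.46. Fam166c, Selenow, a small selenoprotein, and Uhrf1bp1 were at 1.34, 1.18 and 1.17. The largest differences with a mean of at least 1 CPM and no predicted symbol also included S100a7l2 (1.95). Npas4, a neuronal activity-dependent factor (1.65), and Dchs1, a giant protocadherin (1.82), were among them too. Dchs1 was uneven: CW069 1 and 2 held 21.4 and 24.6 CPM, against 8.93 to 10.5 CPM in the other 4 inhibitor libraries and 6.61 to 7.80 CPM in Control.

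Among the genes below Control, Ifi204, an interferon-inducible DNA sensor of the p200 family, had the smallest p after Slc1a7. Control 1 to 3 held 2.97, 3.47 and 3.19 CPM, AZ82 1 to 3 held 1.60, 2.36 and 1.73 CPM, and CW069 1 to 3 held 0.890, 1.23 and 0.682 CPM. All 6 were below Control, and the CW069 libraries were below every AZ82 library. The log2 difference was -0.76 for AZ82 and -1.79 for CW069 against the shared Control, and -1.27 ± 0.20 for their mean (edgeR adjusted p = 0.350). The difference between the inhibitors was -1.03 ± 0.27 (edgeR adjusted p = 0.802). Spp1, which encodes the secreted phosphoprotein osteopontin, was ordered the other way. The AZ82 libraries, at 0.794 to 2.11 CPM, were lowest, the CW069 libraries followed at 2.53 to 3.12 CPM and Control stood at 3.92 to 5.25 CPM, with a log2 difference of -1.13 ± 0.23 for the mean. Neither order passed a test between the inhibitors (edgeR adjusted p = 0.962 for Spp1).

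The other largest differences below Control were of 3 genes with low levels. Ctsk, a lysosomal cysteine protease, was at 0.291 to 1.70 CPM after the inhibitors against 1.80 to 3.31 CPM in Control. Cyp4f15, a cytochrome P450 of fatty acid hydroxylation, was at 1.02 to 1.98 against 2.18 to 3.52 CPM. Serpinb1a, an inhibitor of neutrophil proteases, was at 3.57 to 5.86 against 6.35 to 11.5 CPM; its log2 difference of -0.90 became -0.58 without Control 1. The remaining leading genes below Control were Orc1, at 5.12 to 7.73 CPM against 8.99 to 10.1 CPM in Control, Vwa5a, at 8.95 to 12.9 against 15.3 to 22.7 CPM, Tsku, a secreted leucine-rich protein, at 3.92 to 6.71 against 8.42 to 9.18 CPM, and Rock2, a kinase that acts on the actin cytoskeleton, at 35.9 to 42.5 against 45.8 to 56.7 CPM. Ecpas, a proteasome adaptor, had 103 to 127 CPM against 141 to 146 CPM. Slc25a5, an ADP/ATP carrier of the inner mitochondrial membrane, had 43.2 to 48.8 CPM against 53.1 to 60.3 CPM.

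Of the 15 genes that DESeq2 called on the same design, those higher were Ttc22 (adjusted p = 0.000460), Zmiz2, Sik1, Rbm47 and Galnt17. Those lower were Slc1a7, Ifi204, Vwa5a, Ptgr1, Spp1, Cyp11a1, Gstm2, Ecpas, Zmynd8 and the predicted gene LOC115488029. Zmynd8 was the one of the 15 whose groups overlapped. It reads acetylated histones and had 11.5 to 29.6 CPM after the inhibitors and 29.3 to 46.7 CPM in Control. LOC115488029 had 0.227 to 1.21 CPM after the inhibitors and 2.28 to 7.38 CPM in Control, a log2 difference of -2.41 ± 0.44. As a predicted gene it was left out of the largest differences given above. LOC115488029 and Zmynd8 are named because of this count.

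The genes outside the Control range differed in level between the directions, a property the choice did not use. Those above had a median of 101 CPM over all libraries and those below 17.7 CPM, against 18.7 CPM over all genes tested. Genes of at least 100 CPM made up 50.1% of those above and 4.98% of those below, against 15.9% of all genes. Seen from the other side, 174 of 2521 genes of at least 100 CPM lay above Control (6.90%) and 23 below (0.912%), and their median log2 difference was 0.07. This depended on the scaling: with library size alone, 54 lay above and 63 below, and their median was 0.00. Without Control 3, which was low in abundant late spermatid transcripts, the median was 0.04 and the share below 0 was 34.3%, against 24.3% with all libraries; 328 then lay above and 40 below. These counts were higher without any of the 3 Control libraries, since fewer have to be passed (381 and 61 without Control 2).

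The X chromosome, which is silenced in meiosis and largely stays so in spermatids, had few genes above. Of 694 tested X-linked genes, 2 lay above Control in all 6 inhibitor libraries (0.288%) and 32 below (4.61%), and 68.7% had a log2 difference below 0, with a median of -0.09, against a median of 0.00 over all other genes. Chromosomes 3 and 6 had similar shares below, 4.51% and 4.77%, with 2.33% and 1.86% above. Chromosome 13 also had few genes above, 4 of 581 (0.688%), with 2.75% below. The median over X-linked genes stayed between -0.15 and -0.06 under both other scalings and without any 1 library. Without Control 2, 17 X-linked genes lay above (2.42%) and 86 below (12.3%), against 6.59% and 6.79% of the other genes. Slc25a5, Ebp, an isomerase of cholesterol synthesis, and Rpl10, a protein of the large ribosomal subunit, were X-linked genes below Control in all 6. Rpl10 had 29.5 to 35.8 CPM after the inhibitors and 38.0 to 40.9 CPM in Control.

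**Figure D2:**
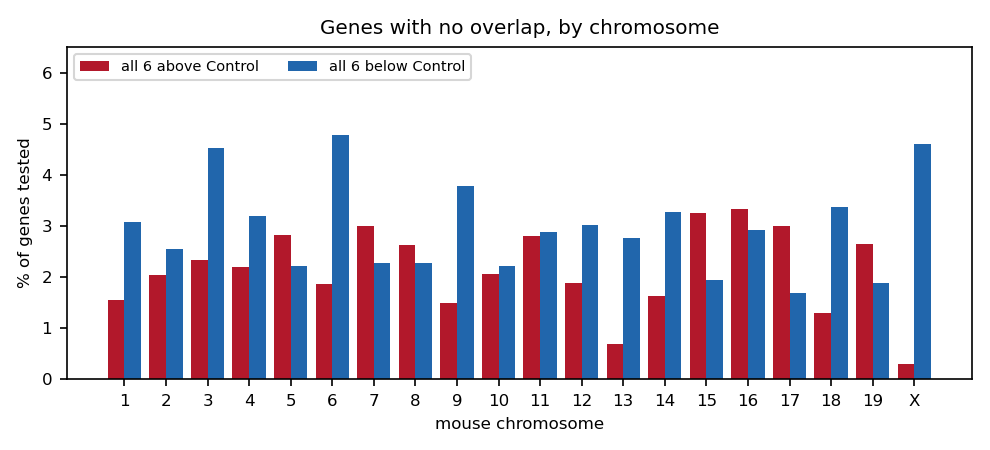
Share of the genes tested on each mouse chromosome (vertical axis, %) that lay above every Control library (red) or below every Control library (blue) in all 6 inhibitor libraries; chromosomes with under 100 tested genes are left out. The red bar of X, at 0.288%, is the lowest of those drawn, and the blue bars of chromosomes 6, X and 3 are the highest.

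Gene lists were read by their counts and medians beside those of all genes tested, for which the median log2 difference was 0.00, 50.9% of genes were below 0, and 2.19% and 2.92% lay above and below Control in all 6. Members and lists were chosen with earlier results of these data known, so their shares and ranks are descriptions and no independent support. Enzymes that break down fatty acids and branched-chain amino acids in mitochondria were the list with the largest share below. Of 34 members tested, 30 had a log2 difference below 0 (88.2%), the median was -0.18, 9 lay below Control in all 6 (26.5%) and 1 lay above. None was called. The median ran from -0.25 to -0.17 under the other scalings and without any 1 library, and between 8 and 19 members lay below throughout. The -0.25 came with library size alone, where the median over all genes was -0.07. The 19 came without Control 2, where 1125 of 15997 genes tested lay below. The summed level of the list ran from 1701 to 1805 CPM in Control and from 1670 to 1736 CPM after the inhibitors, so the sums overlapped. Lower levels of genes in bulk tissue can come from fewer cells of a type or less RNA per cell. These cannot be told apart here or in the results below.

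The 9 members were spread along the pathways. Acadsb, the short/branched-chain acyl-CoA dehydrogenase, had 41.4, 41.4 and 42.0 CPM in Control 1 to 3. The AZ82 libraries held 33.3, 35.8 and 35.8 CPM and the CW069 libraries 29.9, 33.3 and 30.4 CPM. The Control libraries were almost level and all 6 others lay below them, at a ratio of 0.794 (log2 difference -0.33 ± 0.06, edgeR adjusted p = 0.417). Bcat2, which starts branched-chain amino acid breakdown by transamination, was at 32.0 to 33.8 CPM against 34.8 to 39.0 CPM in Control. Ivd, which oxidises the leucine product isovaleryl-CoA, was at 32.0 to 38.2 against 40.4 to 42.9 CPM. Mccc1, a carboxylase subunit of the same leucine route, was at 7.33 to 10.3 against 10.7 to 12.7 CPM and had the lowest ratio of the 9, 0.730.

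In fatty acid oxidation, Acadl, a long-chain acyl-CoA dehydrogenase, was at 19.4 to 24.1 CPM against 25.03 to 29.4 CPM in Control. Echs1, the enoyl-CoA hydratase, was at 19.6 to 23.3 against 23.5 to 30.6 CPM, so that its nearest libraries almost touched. Eci2, an enoyl-CoA isomerase, was at 15.6 to 17.9 against 18.4 to 21.7 CPM. The electrons of these dehydrogenases pass through the flavoprotein encoded by Etfa and its oxidoreductase, encoded by Etfdh, and both lay below Control at ratios of 0.839 and 0.839. Acad8 and Aldh6a1, enzymes of valine breakdown outside the list that were named after their values were seen, were at ratios of 0.776 and 0.832, also below Control in all 6. Cpt1b, the muscle and germ cell form of the enzyme that brings fatty acids into mitochondria, lay above Control, at 381 to 412 against 350 to 380 CPM, and Cpt1a, the liver form, had a log2 difference of -0.18 with overlapping groups. For oxidative phosphorylation, 0 of 62 nuclear genes lay above Control in all 6 and 1, Ndufb2, lay below, around a median of -0.02.

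Antioxidant and glutathione genes were the list with the next largest share below. Of 34 members, 7 lay below Control in all 6 (20.6%), 1 above, and the median was -0.11. The summed levels overlapped, at 3695 to 4381 CPM in Control and 3799 to 4376 CPM after the inhibitors. Ptgr1, a reductase of lipid-derived aldehydes and leukotrienes, stood at 29.9, 27.2 and 31.1 CPM in Control 1 to 3, against 20.2 to 23.2 CPM, median 21.6, after the inhibitors. All 6 lay well below, at a ratio of 0.739 (log2 difference -0.44 ± 0.07, edgeR adjusted p = 0.350). Of the glutathione transferases, Gstm2 was at 184 to 224 against 238 to 287 CPM, Gstm1 at 316 to 421 against 429 to 440 CPM and Gsta4 at 45.5 to 50.7 against 52.2 to 54.8 CPM. Txn1, cytosolic thioredoxin, was at a ratio of 0.766 and Prdx3, the mitochondrial peroxiredoxin, at 0.794. Slc7a11, the cystine importer that feeds glutathione synthesis, was at 5.57 to 7.79 against 8.05 to 8.84 CPM. Gpx4, the selenoprotein peroxidase abundant in late spermatids, lay above, at 760 to 866 against 584 to 759 CPM, where Control 2 and CW069 2 nearly met.

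Leydig cell and steroidogenesis genes were mostly lower. Of 30 members, 22 had a log2 difference below 0, the median was -0.18 and 4 lay below Control in all 6 (13.3%): Star, Cyp11a1, Nr5a1 and Fdxr. Of these, Star, Cyp11a1 and Fdxr act at the entry of steroid synthesis. The summed levels of the list overlapped, at 3215 to 3554 CPM in Control and 2693 to 3420 CPM after the inhibitors. Star moves cholesterol into mitochondria; its Control libraries held 180, 218 and 197 CPM, against 139 to 172 CPM, median 155, after the inhibitors. The nearest libraries were close, and the ratio was 0.793 (log2 difference -0.33 ± 0.08, edgeR adjusted p = 0.479). Cyp11a1, which cuts the cholesterol side chain, had 373, 336 and 386 CPM in Control, 288 to 321 CPM in AZ82 and 265 to 289 CPM in CW069. All 6 were below Control at a ratio of 0.802 (-0.32 ± 0.06, edgeR adjusted p = 0.479; DESeq2 adjusted p = 0.0298). Fdxr supplies electrons to that enzyme and was at 31.3 to 47.6 against 48.2 to 51.9 CPM, with AZ82 2 just under the lowest Control. Nr5a1, the nuclear receptor SF-1 that drives steroidogenic genes, was at 41.3 to 45.9 against 49.9 to 60.1 CPM.

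Steps further along the route overlapped between the groups. Hsd3b1 had a log2 difference of -0.32, as Cyp11a1 had, and Cyp17a1 one of -0.17. The groups overlapped for Hsd3b1 through AZ82 2 alone, at 207 CPM against 199 CPM in Control 2. Hsd3b6 is a gene related to Hsd3b1, and some reads may be misassigned between them, but their counts did not move together. Against Control, Hsd3b1 was at -0.37 in AZ82 and -0.26 in CW069, while Hsd3b6 was at 0.03 and -1.13. Hsd3b6 had 39.1 to 63.3 CPM in Control and a like range, 49.7 to 61.5 CPM, in AZ82, while the CW069 libraries held 23.9 to 25.9 CPM. It was called lower for the mean of both inhibitors only without Control 1 among the 9 libraries left out in turn (edgeR adjusted p = 0.0417). The difference of -1.16 between the inhibitors had the smallest adjusted p of that comparison, 0.255. These 3 genes, Hsd3b1, Cyp17a1 and Hsd3b6, were named after their values were seen. Kallikreins of Leydig cells stood on the other side of 0, Klk1b22 at 0.73 and Klk1b27 at 0.48, with overlapping groups. The Leydig markers Lhcgr and Insl3 were at -0.39 and -0.24, also with overlapping groups. Kallikreins and these markers were likewise named after their values were seen.

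Star, Cyp11a1, Nr5a1 and Fdxr include the receptor SF-1 and known targets of it. The promoter sequences at hand were therefore searched for the hormone receptor core motif AGGTCA and its extended form AAGGTCA on either strand. The search covered the 250 bases before each start in RefSeq (GRCm38.p6). Of the 4 genes, 2 had entries, Cyp11a1 with a pair of starts and Fdxr with 1. The core motif was found once, before the downstream start of Cyp11a1, on the gene's strand; it is shown in capitals in the window chr9:58014702-58014951, plus strand, since it is the one match among these genes. Its last base lies 23 bases before the start. The Fdxr window, chr11:115276970-115277219, minus strand, held no match and is shown for comparison.

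Cyp11a1: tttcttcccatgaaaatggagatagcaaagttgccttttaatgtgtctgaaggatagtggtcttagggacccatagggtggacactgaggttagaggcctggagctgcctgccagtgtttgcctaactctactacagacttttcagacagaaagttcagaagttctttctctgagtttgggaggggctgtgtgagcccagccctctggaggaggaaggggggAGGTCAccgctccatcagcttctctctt
Fdxr: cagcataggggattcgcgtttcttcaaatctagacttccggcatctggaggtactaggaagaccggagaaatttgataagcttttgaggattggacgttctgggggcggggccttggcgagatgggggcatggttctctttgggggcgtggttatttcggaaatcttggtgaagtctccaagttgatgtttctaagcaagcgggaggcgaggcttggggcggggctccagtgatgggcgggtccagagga

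The extended form, which contains the core motif, was in none of these windows. Over 15956 windows of the same length for genes tested, 12.1% held AGGTCA and 3.24% held AAGGTCA, so a match in 1 of 3 windows describes these letters and nothing more.

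**Figure D3:**
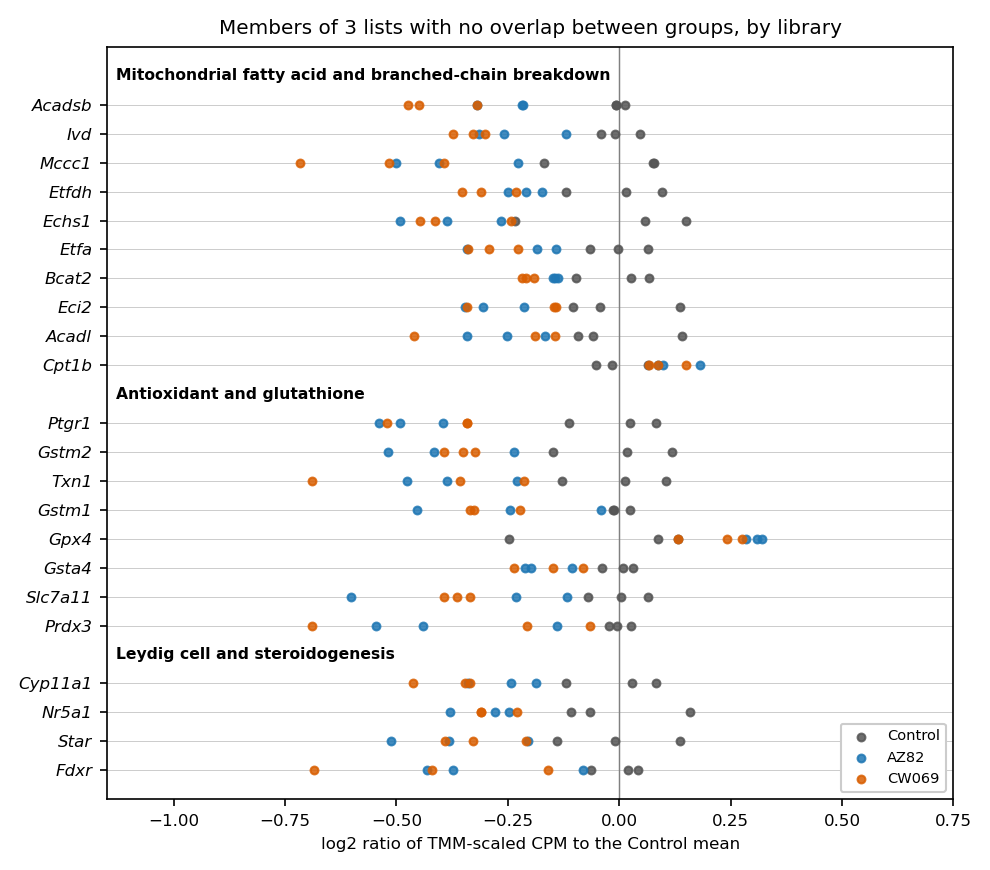
Log2 ratio of TMM-scaled CPM to the Control mean (horizontal axis) for every member of 3 lists whose groups did not overlap; each point is 1 library, grey for Control, blue for AZ82 and orange for CW069. Cpt1b and Gpx4 lie to the right of Control and the other 20 genes to the left, most of them by less than 0.50.

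Markers of other somatic cells stood on both sides of 0. The macrophage and antigen presentation genes had the lowest median of all lists with at least 10 tested members, -0.28. Of 28 members 26 were below 0, and 2 lay below Control in all 6 (7.14%, against 2.92% of all genes tested). Fcer1g, the gamma chain of Fc receptors, was at 1.59 to 3.13 against 3.92 to 4.28 CPM. Cd74, the invariant chain of MHC class II, was at 4.32 to 13.6 against 13.9 to 15.5 CPM. The summed level ran from 477 to 715 CPM in Control and from 493 to 611 CPM after the inhibitors, so the sums overlapped, and the median was -0.10 without Control 1. Among markers of macrophages named after their values were seen, Cd68 had a log2 difference of 0.19. Adgre1, Csf1r and C1qa had -0.17, -0.14 and -0.37, and the groups overlapped for each of these markers. Among Sertoli cell genes, 25 of 29 were below 0, around a median of -0.07. With library size alone 27 were below 0, where the median over all genes was itself -0.07. In all 6, 1 Sertoli gene lay below Control (3.45%), near the 2.92% of all genes tested. It was Cst12, a cystatin, at 35.3 to 50.1 against 54.1 to 58.1 CPM. The Sertoli median was -0.04 without Control 1 or without CW069 3. The part of such markers in the results above was not tested.

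Adipocyte genes varied from library to library more than by group: their level relative to the mean of all libraries ran from -0.46 to 1.12 on the log2 scale, highest in AZ82 2 and next in Control 1, and their median difference was -0.03, or 0.22 without Control 1. Peritubular myoid genes had a median of 0.10, which was 0.04 without AZ82 3 and 0.06 without Control 2. Endothelial genes had one of 0.03, which was -0.07 without Control 2 and also below 0 without Control 3, AZ82 3 or CW069 2. None of either list lay outside the Control range. Red blood cell genes (5 of 9 tested) had a median of -0.22 and overlapping groups, but the median was 0.29 without Control 1 and -0.57 without Control 3. Of the skeletal muscle genes, Myh1, a fast myosin heavy chain, lay above Control, at 2.33 to 4.79 against 1.80 to 2.002 CPM.

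Germ cell lists differed by stage. Spermatogonial genes had a median of -0.17, with 16 of 21 tested members below 0; without Control 2 the median was -0.09 and 13 were below 0. Dmrtb1, at 411 to 456 against 457 to 477 CPM, and Rarg, a retinoic acid receptor, at 3.93 to 5.05 against 5.13 to 6.52 CPM, lay below Control in all 6; the log2 difference of -0.27 for Rarg was -0.15 without Control 3. Utf1, a chromatin factor of undifferentiated spermatogonia, lay above, at 0.649 to 1.00 against 0.399 to 0.449 CPM. Meiotic genes had a median of -0.06 and none of 30 outside the Control range; the median ran from -0.09 without Control 1 to -0.03 without Control 3, and was also -0.03 without AZ82 3 or CW069 2.

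Spermatid genes stood mostly above 0. Of 39 elongating spermatid and sperm genes, 38 were above 0, the median was 0.19 and 5 lay above Control in all 6 (12.8%), but without Control 3 the median was -0.01 and 19 were above 0, and without Control 1 the median was 0.29. Tnp2, a transition protein that replaces histones, had 2161, 2071 and 1020 CPM in Control 1 to 3 and 2332 to 3010 CPM, median 2432, after the inhibitors; Control 3 was far below all other libraries. The other 4 were Pgam2, a muscle and sperm glycolytic mutase, at a ratio of 1.18, Tssk1 and Tssk4, spermatid kinases, at 1.16 and 1.14, and Catsper1, a pore subunit of the sperm calcium channel, at 1.17. The log2 difference of Tssk1 was 0.22 with all libraries and 0.13 without Control 3. Ybx2, a germ cell RNA-binding protein of the piRNA list, had 1294 to 1539 CPM against 1176 to 1233 CPM.

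Acrosome, manchette and axoneme genes also stood above 0, in smaller steps. Their shares above Control in all 6 were 5.26%, 12.5% and 8.89%, against 2.19% of all genes tested. Of the 2521 genes of at least 100 CPM, 6.90% lay above Control, 1909 were above 0 and the median was 0.07. Whether these lists differ from other genes of like level was not tested. Of 38 acrosome and round spermatid genes, 32 were above 0, with a median of 0.11 that became 0.03 without Control 3; Dcst2, a sperm-egg fusion protein, and Agfg1, needed for acrosome formation, lay above Control in all 6. Of 32 genes of the manchette, the microtubule skirt that shapes the spermatid head, and of intraflagellar transport, 28 were above 0, the median was 0.08 and 4 lay above Control. They included Katnal1, a microtubule-severing enzyme, Ccdc42 and Ccdc62. Ccdc62 differed by 0.05 ± 0.05 and shows how small a difference without overlap can be. Of 45 axoneme and flagellum genes, 39 were above 0, with a median of 0.09; Cfap45, a protein inside the doublet microtubules, was at 213 to 243 against 166 to 200 CPM, and Dnaic1, Dnali1 and Cfap70 also lay above Control. The log2 difference of Dnaic1 was 0.14 with all libraries and 0.09 without Control 1. With library size alone the medians of the manchette and axoneme lists were 0.02 and 0.02, against -0.07 over all genes.

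Spindle, centrosome and kinesin-14 genes, close to the work of KIFC1 itself, had no member outside the Control range. This held for 32 spindle and kinetochore genes, 26 centrosome and centriole genes and 4 kinesin-14 motors. Over all genes tested 2.19% lay above and 2.92% below, so 0 in lists of this size is near the background. The list medians were -0.02, 0.00 and 0.05, the last being 0.03 without Control 1 and 0.02 without CW069 3. Of the kinesin-14 motors, 1 of 4 was higher at an unadjusted p under 0.05 in edgeR, and 2 lay above Control without Control 2. Tubulins had a median of 0.12 with 16 of 18 above 0, from -0.06 for Tuba1b to 0.66 for Tubb2b, and 0 outside the Control range. Tubulin copies share sequence, so their counts may be split between members.

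Immediate early genes, whose transcripts rise within minutes of a stimulus, had a median of 0.15, with 26 of 35 above 0. Sik1, Nr4a1 and Klf2 lay above Control in all 6 (8.57%) and Socs3, a feedback inhibitor of cytokine signalling, lay below. Nr4a1, an orphan nuclear receptor, had 38.6, 41.0 and 32.9 CPM in Control 1 to 3 and 43.2 to 54.1 CPM after the inhibitors. Egr1, a zinc finger transcription factor named after its values were seen, varied widely: it had 14.1 and 16.8 CPM in AZ82 1 and 2 and 22.0 CPM in CW069 3, but 6.21 to 7.19 CPM in the other 3 inhibitor libraries, inside the Control range of 5.45 to 7.70 CPM.

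Several other lists had 1 to 3 members outside the Control range. Over all genes tested 2.19% lay above and 2.92% below, so most of these counts are near the background. They are given as a description and carry no result about the lists. Cell death genes had a median of -0.07, or -0.14 without Control 2, with 25 of 36 below 0 and 2 below Control in all 6, Bcl2l2 and Casp2, at ratios of 0.874 and 0.841. The p53 list had a median of -0.10, which was -0.06 without Control 1 and -0.05 without Control 3, and Ccng1, a p53 target, below Control at a ratio of 0.838. Replication genes had 22 of 30 below 0 and 2 below Control in all 6, Orc1 and Orc4. Chaperones had 2 of 27 below, among them Hspd1, the mitochondrial chaperonin, at 42.3 to 48.7 against 53.3 to 60.5 CPM, and Hspa5 of the endoplasmic reticulum. Cholesterol synthesis genes had Ebp below and Insig1, a brake on that pathway, above, with a median of -0.01. Ribosomal protein genes had Rpl10 and Rpl3 below and Rps7 above among 67. Single members lay outside the Control range in the blood-testis barrier (F11r, below), peroxisome (Agps, below), unfolded protein (Xbp1, below), autophagy (Gabarap, above) and extracellular matrix (Lamb1, below) lists, and 1 of 27 interferon response genes, Ifi204, lay below. Hdac4, a class IIa histone deacetylase, was at 28.6 to 39.8 against 25.7 to 28.0 CPM.

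**Figure D4:**
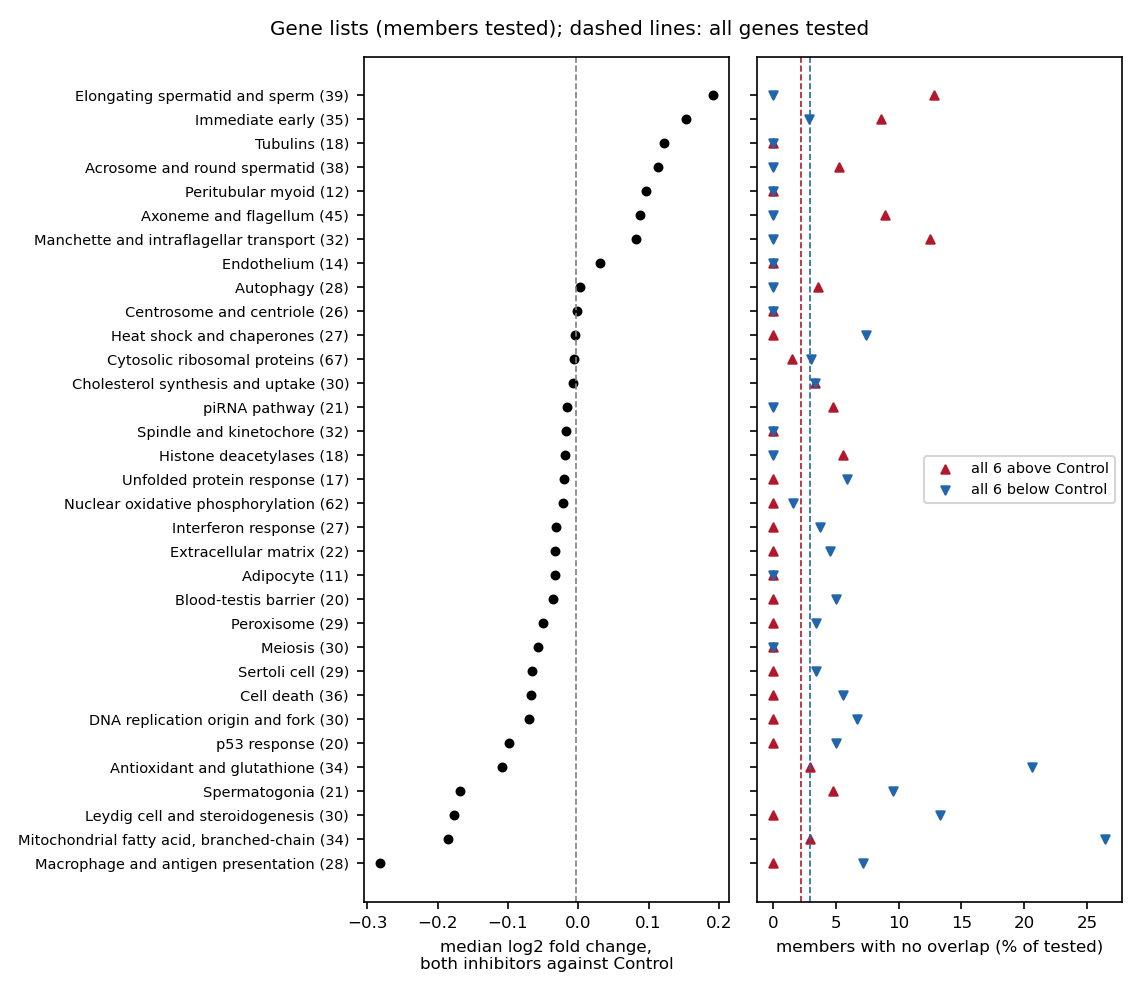
Median log2 fold change of both inhibitors against Control (left panel) and share of members with all 6 inhibitor libraries above (red) or below (blue) every Control library (right panel, % of members tested) for the gene lists with at least 10 tested members that are reported, the number in brackets; dashed lines give the values of all genes tested. The mitochondrial breakdown list reaches 26.5% below and the antioxidant list 20.6%, and the macrophage list has the lowest median, -0.28. Lists were chosen with earlier results of these data known.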

How the data were processed

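Testis RNA of 9 samples, 3 per group, was measured by RNA sequencing of libraries made with a stranded mRNA kit, per the labels' protocols. The authors deposited read counts per gene, whole numbers with no normalization, in a joint table and in 1 file per sample. The files and the table were compared and held equal values for all 19991 genes. Tools named by the submitters' processing notes are Trimmomatic, HISAT2 and HTSeq, with the build GRCm39; settings, among them the strand setting of the counting, are not given in the sources used here, so reads of overlapping and near-identical genes may be misassigned. Totals were 13856070 to 18102593 counts. The median 95% interval of the fitted difference was ± 0.24 on the log2 scale, a factor of 1.18. It depends on the spread among the 3 libraries per group as well as on depth.

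The filter on low counts, filterByExpr with the groups given, kept 15834 genes. A model with a coefficient for each of the 3 groups was fitted to the TMM-scaled counts of all libraries with edgeR 4.0.16 in R 4.3.3. The quasi-likelihood test, two-sided, was applied to the mean of the AZ82 and CW069 coefficients minus Control, and to CW069 minus AZ82; a gene was called at a Benjamini-Hochberg adjusted p under 0.05 over all genes tested. A gene was described as above or below Control when all 6 inhibitor libraries lay beyond every Control library in TMM-scaled CPM. The fit was tested on simulated counts.

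Kifc1, Kifc5b and called genes were named, and, among genes beyond Control with a mean of at least 1 CPM and no predicted symbol, the 12 smallest p and 5 largest differences per direction and up to 3 members per list. The 39 gene lists held 1038 entries, of which 1032 were found; lists were described by counts and medians with no set test. Some genes, and 1 list, are not reported here. The members and lists were chosen with earlier results of these data known. A RefSeq table of GRCm38.p6 gave names, chromosomes and gene order (19825 symbols found), and its promoter windows the sequences. DESeq2 1.42.0, limma-voom 3.58.1, 2 scalings, 2 filters, a replicate block, 1 coefficient for the 6 inhibitor libraries and leaving out each library were the alternatives. Same-numbered libraries deviated from their group means with correlations from -0.13 to 0.06, so the numbers were not taken to pair samples.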

Additional observations from a re-analysis of the deposited data

Results flagged for a closer look

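Dnali1, a light chain of the inner dynein arms of the sperm tail, stood at 261.4 CPM in AZ82 1, apart from the other 5 inhibitor libraries at 232 to 241 CPM. The gap to the nearest library took 0.718 of the whole range, above the 95% critical value of Dixon's test for 6 values. Control lay between 217 and 220 CPM, so Dnali1 was above Control in all 6 with or without that library. Chance marks about 1 in 20 such groups, and no other of the 79 named genes was marked.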

How the results depend on the processing

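Calls were few and moved with the tool and with single libraries. DESeq2 called 5 genes higher, 10 lower and 13 between the inhibitors. The replicate block called 0 lower (Slc1a7, log2 fold change -5.15, adjusted p = 0.0738); the labels share only numbers, so this is not a weaker effect. Leaving out 1 library gave 0 to 4 genes higher, 0 to 2 lower and 0 to 4 between the inhibitors. Genes above Control in all 6 numbered 120 with library size alone, 37 with a gap of at least 0.1 (log2) and 2085 beyond the Control mean; those below numbered 784, 78 and 1792. Without 1 library they numbered 406 to 1025 above and 540 to 1125 below, most without Control 2; with fewer libraries, fewer have to be passed. Kifc5b, near 0, ran from -0.0791 to 0.0582 when 1 library was left out and changed sign without Control 3 (0.0582) and without AZ82 2 (0.0010). Of 1342 pairs of a named gene and an alternative, 1321 kept direction and side of the threshold, 5 lost the call (all Slc1a7) and 14 gained one. The medians of lists and of chromosome and level groups under other scalings and without 1 library were alternatives added after seeing the data; the elongating spermatid list turned from 0.19 to -0.01 without Control 3, the red blood cell list from -0.22 to 0.29 and the adipocyte list from -0.03 to 0.22 without Control 1, and medians nearer 0 also changed sign. Genes at a few counts, such as Slc1a7 after inhibitors, are limited by depth.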
